A study of Homo sapiens with 12 samples.

Results

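The genes described here are 149 named long non-coding RNAs (lncRNAs) of PC9 cells, taken from a table of 30225 genes. They were selected on their measured level: a row had to carry the lncRNA biotype and a gene name, reach a mean of at least 5 TPM over all 12 libraries, and reach at least 1 TPM in every library. TPM are transcript abundances per unit of length, scaled so that every library has the same total. Of 10322 lncRNA rows, 3000 were named, and 149 of those passed the level rule. At the same level the table held 317 lncRNAs without a name and 5460 protein-coding genes.

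PC9 is an established line of non-small cell lung cancer cells with an activating EGFR mutation, and every library came from cells kept in gefitinib at 300 nM, a drug that blocks EGFR signalling. AGR2, the manipulated gene, encodes a protein disulfide isomerase of the endoplasmic reticulum. The 4 groups of 3 libraries were PC9 control cells and PC9 shAGR2 (knockdown) cells after 24 h of drug, and PC9 control cells and PC9 oeAGR2 (overexpression) cells after 72 h. The comparisons ask how each AGR2 manipulation moved the lncRNAs relative to the control of the same drug time. The labels do not say whether replicates were separate cultures, whether a population was 1 clone, or which vector the controls carried, so p-values measure the spread between these libraries, which may be technical.

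An lncRNA is a long transcript with no known protein product. Some act as RNA in the nucleus, such as NEAT1, the scaffold of paraspeckles, and MALAT1, which resides in splicing speckles. Others are carriers: a miRNA host gene is cut to release a microRNA precursor, and a snoRNA host gene releases from its introns small nucleolar RNAs that guide modification of ribosomal RNA, while its spliced remainder is often degraded by nonsense-mediated decay. A further group is named for a coding neighbour, with AS for a transcript antisense to it and DT for a divergent transcript that starts at or near the same promoter in the other direction.

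The 149 were classed from their names: 58 antisense, 19 divergent, 18 long intergenic (LINC), 16 snoRNA hosts, 5 miRNA hosts and 33 others. Of the 149, 134 were found in GENCODE release 29. There, 15 of the 16 snoRNA hosts hold an annotated snoRNA within their span, GAS5 being classed by its name, and all 5 miRNA hosts hold a miRNA. In the deposited coordinates 106 of the 149 overlap a gene on the other strand, a coding gene in 82 cases. In 64 of the 134 an exon overlaps an exon of a coding gene on the other strand, and in 13 on the same strand. Library strandedness was not stated in the labels, and for such genes the reads of an lncRNA and its overlapping partner cannot be told apart.

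The RNAs that the 5 miRNA hosts carry are shown because those hosts include some of the strongest movers below. Of the 149, 7 hold a miRNA annotated in GENCODE release 29, and not all of these were read. RefSeq (GRCh38.p14) gave 18 mature miRNAs in those read, 1 of them in DANCR and the rest in the 5 hosts. No seed, bases 2 to 8 of the mature RNA and the part that pairs with targets, was shared between them. The main arms follow, 5′ to 3′ with the seed in capitals. The mature miRNAs themselves were not measured here; the values below are those of the host transcripts.
hsa-miR-205-5p (in MIR205HG, chr1:209432166-209432187, plus strand): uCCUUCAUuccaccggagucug
hsa-miR-22-3p (in MIR22HG, chr17:1713914-1713935, minus strand): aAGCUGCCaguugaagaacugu
hsa-miR-200c-3p (in MIR200CHG, chr12:6963742-6963764, plus strand): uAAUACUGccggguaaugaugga
hsa-miR-141-3p (in MIR200CHG, chr12:6964155-6964176, plus strand): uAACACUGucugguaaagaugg
hsa-miR-23a-3p (in MIR23AHG, chr19:13836595-13836615, minus strand): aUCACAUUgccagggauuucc
hsa-miR-27a-3p (in MIR23AHG, chr19:13836447-13836467, minus strand): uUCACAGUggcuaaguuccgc
hsa-miR-24-3p (in MIR23AHG, chr19:13836289-13836310, minus strand): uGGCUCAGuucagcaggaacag
hsa-miR-193b-3p (in MIR193BHG, chr16:14304017-14304038, plus strand): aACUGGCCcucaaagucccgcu
hsa-miR-365a-3p (in MIR193BHG, chr16:14309340-14309361, plus strand): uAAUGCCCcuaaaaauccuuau

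AGR2 itself measured 32.9, 31.2 and 31.7 TPM in the 24 h controls and 0.592, 0.658 and 0.769 TPM in the knockdown. At 72 h it measured 8.67, 7.82 and 7.84 TPM in the controls and 12.1, 10.7 and 10.7 TPM in the overexpression libraries, a small separation with no overlap. Epithelial markers were present in every library (EPCAM 30.3 to 50.2 TPM, KRT7 380 to 901 TPM), while the leukocyte marker PTPRC stayed at or below 0.0213 TPM. Not all non-epithelial markers read were that low. CD68, from the leukocyte list, measured 49.5 to 151 TPM and COL1A1, from the fibroblast list, 3.54 to 8.56 TPM. The others that were measured stayed at or below 0.817 TPM, the highest value of CDH5. Mitochondrial genes took 45.0% ± 2.11, 36.6% ± 0.479, 42.1% ± 0.902 and 43.5% ± 5.39 (mean ± SD, n = 3) of the TPM in the 24 h control, knockdown, 72 h control and overexpression groups. Overexpression replicate 1 stood at 37.3% against 47.4% and 45.8%. Read counts cannot be recovered from TPM, and depth is therefore unknown. Because TPM share a fixed total, every comparison was repeated after median-ratio rescaling, which sets the typical gene equal between libraries. That shifted the median change of all tested genes from 0.35 to −0.01 on the log2 scale in the knockdown and from 0.30 to −0.01 between the controls, but only from 0.03 to −0.03 in the overexpression.

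Together the 149 lncRNAs were most abundant in the overexpression libraries. Their summed level was 2388 ± 12.1 TPM in the 24 h controls, 2615 ± 70.5 TPM in knockdown cells, 2542 ± 71.1 TPM in 72 h controls and 4166 ± 47.8 TPM in the overexpression (mean ± SD, n = 3), or 0.239%, 0.262%, 0.254% and 0.417% of all TPM. The overexpression total therefore lay apart from the other groups, which lay close together. Without NEAT1, MALAT1, UCA1 and SCARNA9, the sums were 2140 ± 30.6, 2388 ± 62.7, 2288 ± 70.9 and 3266 ± 28.5 TPM in the same order. All 10322 lncRNA rows together took 3.41% ± 0.297, 3.80% ± 0.0717, 2.79% ± 0.0643 and 3.88% ± 0.513 of all TPM in that order. On this wider set the overexpression lay above its 72 h control but beside the knockdown. Unnamed lncRNAs at the level of the 149 also rose more often than they fell in the overexpression (49.2% and 9.46%, by the test described below). Whether the separation above is particular to the 149 was not tested. Of the 149, 99 had their highest group mean in the overexpression, 22 in knockdown cells, 17 in 72 h controls and 11 in the 24 h controls. These counts became 76, 16, 11 and 46 after rescaling. No such counts were made for other genes, so how far they depart from a background is not known. The mean that selected the 149 also includes the overexpression libraries. In bulk RNA, more cells expressing an lncRNA and more of it per cell cannot be told apart. Single levels ran from 5.24 to 166 TPM (mean over 12 libraries; median 11.5), with UCA1 and KRT7-AS at the top.

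Each gene was tested in limma on log2(TPM + 1) together with all 15721 genes at 1 TPM or more in at least 3 libraries, and "passed" means a Benjamini-Hochberg adjusted p under 0.05 over all of them. In the overexpression, 88 of the 149 rose and 14 fell, which is 59.1% and 9.40%, with a median log2 change of 0.54. Over all tested genes 29.9% rose and 25.5% fell, with a median of 0.03. Protein-coding genes at the same level divided into 31.6% higher and 30.6% lower, while unnamed lncRNAs at the same level divided into 49.2% and 9.46%. After rescaling, 84 rose and 22 fell, against 26.6% and 29.7% of all tested genes, and 84 risers and all 14 fallers kept their call under both scalings. Changes of 2-fold or more that passed numbered 37 up and 3 down, against 6.84% and 3.68% of all tested genes. The libraries of the groups did not overlap for 90 lncRNAs with the overexpression higher and 20 with it lower, against 33.2% and 29.9% of all tested genes. These lncRNAs were chosen by a mean that includes the overexpression libraries, so a gene high only there could enter through them. With the level instead set by the 24 h libraries alone, 147 named lncRNAs qualified, of which 80 (54.4%) rose and 16 (10.9%) fell, beside 29.7% and 32.6% of the protein-coding genes at that level.

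In the knockdown the direction of the 149 was divided, and it depended on the scaling. As deposited, 50 rose and 37 fell, or 33.6% and 24.8%, with a median log2 change of 0.06. Over all tested genes 53.6% rose and 11.9% fell, with a median of 0.35. After rescaling 24 rose and 85 fell, or 16.1% and 57.0%, against 29.8% and 29.5% of all tested genes. Calls that were the same under both scalings numbered 24 up and 37 down, and SNHG29, MRPL20-AS1 and SLC9A3-OT1 passed in opposite directions. At 2-fold or more, 11 rose and 6 fell, against 12.2% and 2.44% of all tested genes. Library values did not overlap for 60 lncRNAs higher and 36 lower, against 57.3% and 13.6%. With the level set by the 72 h libraries alone, 57 of 176 named lncRNAs rose and 48 fell.

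**Figure D1:**
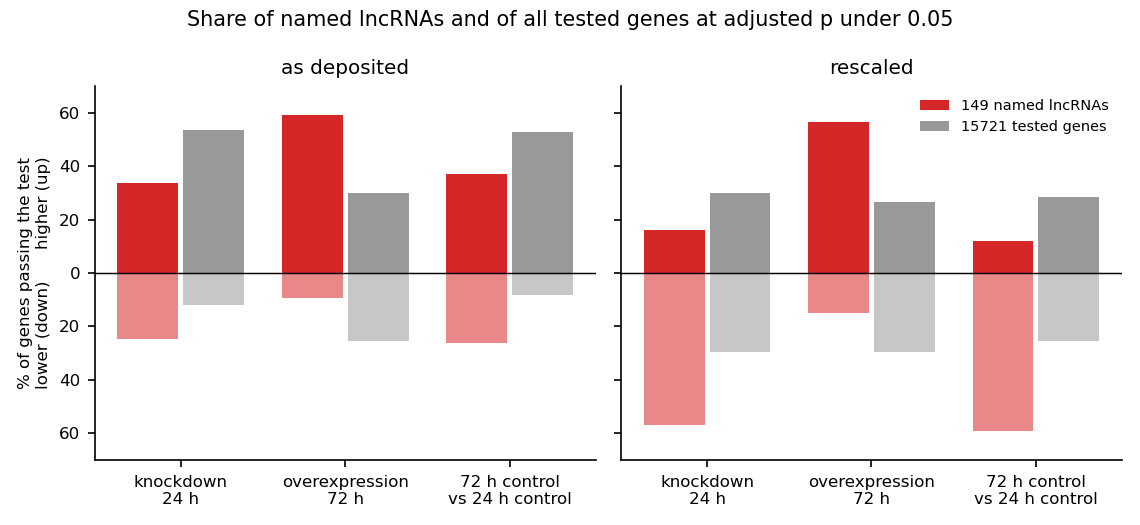
Percentage of the 149 named lncRNAs (red) and of the 15721 tested genes (grey) that passed the limma test higher (above 0) or lower (below 0, paler) in each comparison, on TPM as deposited and after median-ratio rescaling. The overexpression bars of the lncRNAs go from 59.1% to 56.4% higher and from 9.40% to 14.8% lower with rescaling, while those of the knockdown go from 33.6% to 16.1% higher and from 24.8% to 57.0% lower.

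Among RNAs that act in the nucleus, the paraspeckle scaffold NEAT1 (ENSG00000245532, chr11:65422278-65445540, plus strand, hg38) showed the largest gain among the well-known lncRNAs named here. It measured 29.7, 28.0 and 28.6 TPM in the 72 h controls and 226, 249 and 249 TPM in the overexpression. The groups were far apart, a log2 change of 3.02 ± 0.0727 (SE; limma adjusted p = 1.19e-09) or 8.39-fold in mean TPM. In the 24 h comparison NEAT1 measured 33.5, 40.2 and 37.6 TPM in the controls and 64.2, 58.1 and 59.6 TPM in the knockdown. That gain was smaller, 0.70 ± 0.0727 (limma adjusted p = 1.21e-05), or 0.20 after rescaling (limma adjusted p = 0.00613). The difference between the overexpression and knockdown effects was 2.33 ± 0.103 (limma adjusted p = 3.15e-08).

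MALAT1 (chr11:65497606-65508073, plus strand), the neighbour of NEAT1 and a component of splicing speckles, measured 93.5, 93.4 and 83.1 TPM in the 72 h controls and 191, 230 and 213 TPM in the overexpression. It rose there by 1.22 ± 0.117 (limma adjusted p = 1.15e-05), and every overexpression library was above every other library. In the knockdown it measured 90.3, 82.6 and 82.5 TPM against 64.0, 90.0 and 71.4 TPM in the controls. Those groups overlapped and the change of 0.19 did not pass (limma adjusted p = 0.177), while rescaling turned it to −0.31 (limma adjusted p = 0.0213). MALAT1 and NEAT1 together supplied 10.9% of the summed lncRNA level in the overexpression and 4.67% to 5.57% in the other groups.

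SCARNA9 (chr11:93721513-93721865, plus strand), which guides modification of spliceosomal RNA in Cajal bodies, had the largest fold of the 149 in the overexpression. It measured 8.46, 14.6 and 9.79 TPM in the 72 h controls and 127, 101 and 88.2 TPM in the overexpression, a log2 change of 3.17 ± 0.204 (limma adjusted p = 7.40e-07). The knockdown libraries (12.5, 10.8 and 9.81 TPM) lay above the 24 h controls (5.43, 6.79 and 8.21 TPM) by 0.63 (limma adjusted p = 0.0189). That smaller change did not pass without 24 h control replicate 1, where it was 0.50, or without knockdown replicate 1, and rescaling lowered it to 0.18 (limma adjusted p = 0.484).

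The proteins of these nuclear bodies were read from lists beside the RNAs. Protein-coding genes at the level of the 149 serve as their background: 62.3% rose in the knockdown and 31.6% in the overexpression as deposited, and 1749 and 1463 of the 5460 after rescaling. Those that fell were 15% in the knockdown and 30.6% in the overexpression as deposited, and 37.9% and 36% after rescaling. All 12 paraspeckle proteins rose in the knockdown (11 after rescaling), with a median log2 change of 0.87 (0.36 after rescaling). In the overexpression 3 of them rose and 2 fell as deposited, but 4 rose and 6 fell after rescaling. SFPQ, which with NONO binds NEAT1, went from 76.8 ± 6.61 to 128 ± 8.34 TPM in the knockdown. NONO rose there too, from 37.6 ± 2.30 to 62.1 ± 2.50 TPM. In the overexpression the 2 parted. NONO went from 48.1 ± 0.318 to 35.7 ± 2.44 TPM, and SFPQ from 97.2 ± 1.12 to 114 ± 12.4 TPM. That rise of SFPQ passed only after rescaling (limma adjusted p = 0.0586 as deposited and 0.0462 rescaled). All 11 splicing speckle proteins rose in the knockdown (7 after rescaling), and 6 rose and 1 fell in the overexpression under either scaling. The largest gains in the overexpression were those of ACIN1, from 15.0 ± 0.631 to 35.8 ± 2.45 TPM, and SRSF11, from 13.6 ± 0.106 to 32.2 ± 4.64 TPM.

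UCA1 (ENSG00000214049, chr19:15828206-15836328, plus strand), an lncRNA named for urothelial cancer, was the most abundant of the 149 and moved in opposite directions in the engineered populations. It measured 118, 135 and 134 TPM in the 24 h controls and 71.1, 69.6 and 68.6 TPM in the knockdown. At 72 h it measured 124, 124 and 126 TPM in the controls and 280, 387 and 359 TPM in the overexpression. Neither pair of groups overlapped, and as deposited the control groups were level with each other. Between those controls the median log2 change of all tested genes was 0.30 as deposited and −0.01 after rescaling. The log2 changes were −0.87 ± 0.105 (limma adjusted p = 3.39e-05) and 1.43 ± 0.105 (limma adjusted p = 1.73e-06), and their difference was 2.31 ± 0.148 (limma adjusted p = 3.64e-07).

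NORAD (chr20:36042280-36051018, minus strand), a cytoplasmic lncRNA that binds PUMILIO proteins, measured 79.2, 103 and 94.5 TPM in the 24 h controls and 165, 141 and 143 TPM in the knockdown. It rose by 0.70 ± 0.107 (limma adjusted p = 0.000195), but by 0.20 after rescaling (limma adjusted p = 0.0555). In the overexpression its 151, 185 and 174 TPM lay just above the 136, 137 and 131 TPM of the controls. That change of 0.33 (limma adjusted p = 0.0247) did not pass without any single 72 h control library, or without overexpression replicate 2 or 3, ranging from 0.26 to 0.41 when libraries were left out in turn.

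**Figure D2:**
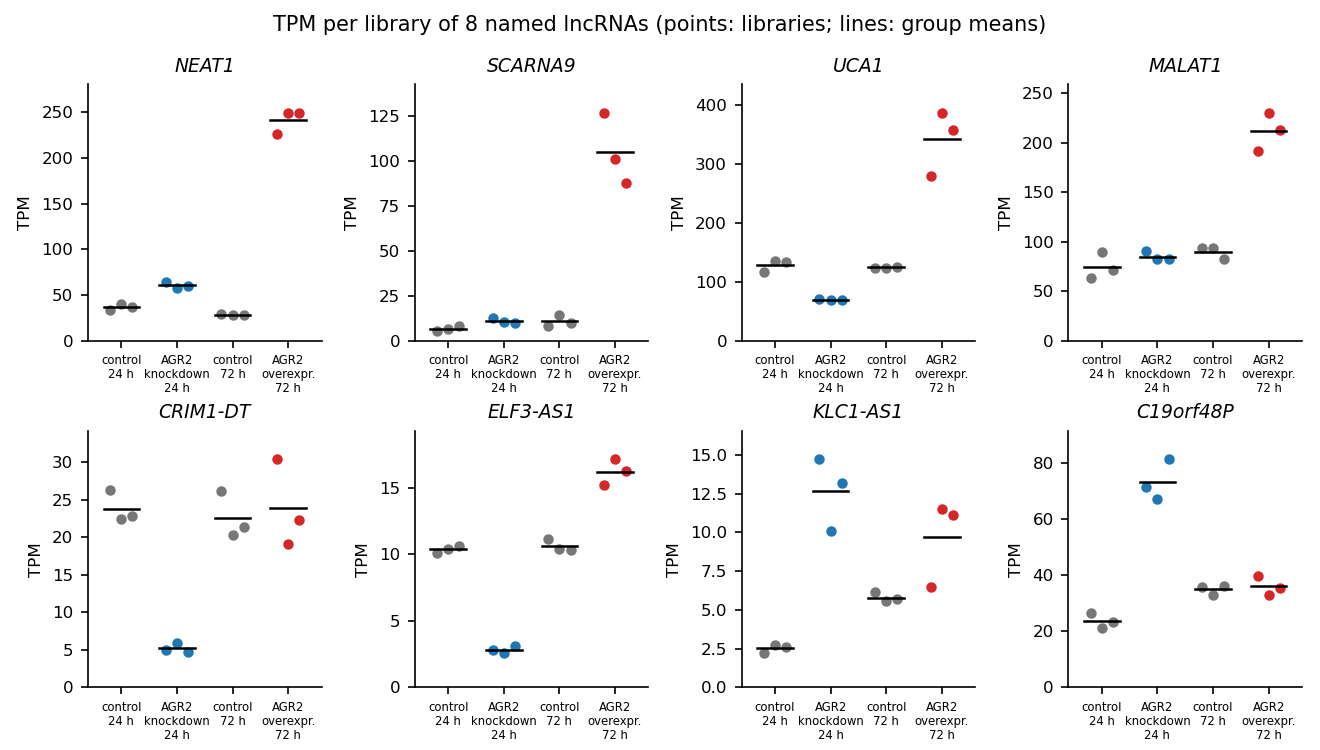
TPM of 8 named lncRNAs in each of the 12 libraries, with points for libraries and lines for group means, on axes that start at 0. NEAT1, SCARNA9, UCA1 and MALAT1 are highest in the overexpression, CRIM1-DT and ELF3-AS1 are lowest in the knockdown, and KLC1-AS1 and C19orf48P are highest in the knockdown.

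All 5 miRNA hosts rose in the overexpression and 4 of the 5 fell in the knockdown, with the same calls after rescaling. Of all tested genes, 29.9% rose in the overexpression and 11.9% fell in the knockdown as deposited. After rescaling those shares were 26.6% and 29.5%. MIR22HG, host of miR-22, measured 25.6, 29.5 and 28.8 TPM in the 24 h controls and 13.1, 12.5 and 13.3 TPM in the knockdown. In the 72 h controls it measured 35.0, 32.2 and 32.6 TPM and in the overexpression 93.1, 97.8 and 94.4 TPM. The log2 changes were −1.05 ± 0.0611 (limma adjusted p = 2.11e-07) and 1.49 ± 0.0611 (limma adjusted p = 3.64e-08), with no overlap of the groups in either. Its coding neighbour on the other strand, WDR81, went the other way in the knockdown (0.54, limma adjusted p = 0.00129) and did not pass in the overexpression (0.03).

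MIR200CHG, host of miR-200c and miR-141, which repress the ZEB factors of epithelial-mesenchymal transition, measured 7.45, 6.27 and 6.08 TPM in the 72 h controls and 20.7, 15.5 and 17.2 TPM in the overexpression. It rose by 1.30 ± 0.131 (limma adjusted p = 1.63e-05). In the knockdown it fell by 0.61 on the log2 scale, from 7.35, 7.51 and 6.86 TPM to 3.45, 4.88 and 4.94 TPM (limma adjusted p = 0.0019). MIR193BHG, host of miR-193b and miR-365a, showed the same pair of directions with smaller changes, −0.73 ± 0.0767 and 0.78 ± 0.0767 (limma adjusted p = 1.29e-05 and 1.38e-05).

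MIR23AHG, host of miR-23a, miR-27a and miR-24, measured 6.56, 6.05 and 5.46 TPM in the 72 h controls and 23.3, 22.3 and 23.6 TPM in the overexpression, a change of 1.78 ± 0.0723 (limma adjusted p = 3.34e-08). Its fall in the knockdown was slight, from 3.53, 2.96 and 3.41 TPM to 2.66, 2.67 and 2.96 TPM, groups that touched. That change of −0.19 (limma adjusted p = 0.0382) failed to pass in 6 of the 12 fits that left out 1 library, among them those without 24 h control replicate 1 or 3 and without knockdown replicate 1 or 2, with values from −0.25 to −0.15.

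MIR205HG, host of miR-205, a miRNA of squamous and basal epithelia, was the exception among the 5, since it rose in both populations. It measured 31.5, 27.0 and 30.9 TPM in the 24 h controls and 84.9, 81.2 and 85.5 TPM in the knockdown. At 72 h it measured 15.0, 14.5 and 15.9 TPM in the controls and 54.5, 50.7 and 49.0 TPM in the overexpression. The changes were 1.46 ± 0.068 (limma adjusted p = 4.88e-08) and 1.70 ± 0.068 (limma adjusted p = 2.99e-08), and 0.97 and 1.63 after rescaling. Their difference of 0.23 did not pass as deposited (limma adjusted p = 0.0527) but did after rescaling, at 0.66 (limma adjusted p = 0.00102).

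**Figure D3:**
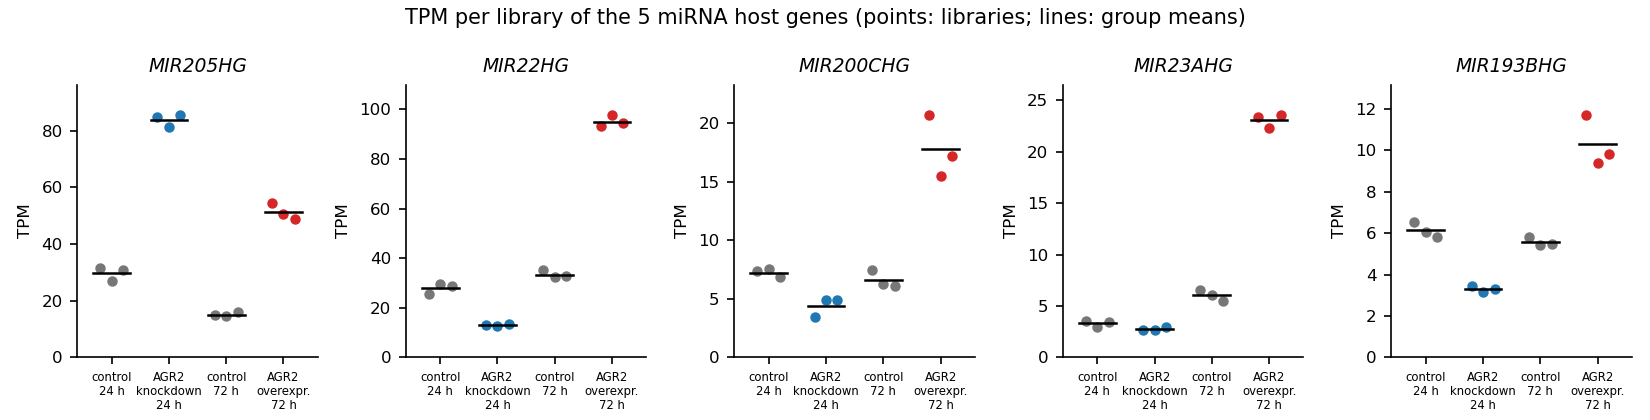
TPM of the 5 miRNA host genes in each of the 12 libraries, with points for libraries and lines for group means. MIR22HG, MIR200CHG, MIR23AHG and MIR193BHG are lowest in the knockdown and highest in the overexpression, while MIR205HG is highest in the knockdown at 81.2 to 85.5 TPM.

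Of the 16 snoRNA hosts, 6 rose and 5 fell in the knockdown as deposited, but 4 rose and 9 (56.2%) fell after rescaling, beside the 53.6% up and 11.9% down as deposited and 29.8% and 29.5% after rescaling of all tested genes. In the overexpression 8 (50%) rose and 2 (12.5%) fell under either scaling. Of all tested genes, 29.9% rose and 25.5% fell there as deposited, and 26.6% and 29.7% after rescaling. SNHG1, whose introns hold 7 annotated snoRNAs, measured 46.7, 52.3 and 46.2 TPM in the 24 h controls and 95.6, 88.0 and 82.5 TPM in the knockdown. It rose by 0.86 ± 0.0777 (limma adjusted p = 4.30e-06), or 0.36 after rescaling (limma adjusted p = 0.00707), and its change of 0.14 in the overexpression did not pass. The coding gene on the other strand, SLC3A2, an amino acid transporter subunit, fell by 1.55 on the log2 scale in the overexpression. SNHG15 and DANCR rose with SNHG1 in the knockdown, by 0.84 and 0.91, and passed after rescaling too.

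A different set of snoRNA hosts followed the pattern of the miRNA hosts. EPB41L4A-AS1, which holds SNORA13, measured 24.9, 23.7 and 25.1 TPM in the 24 h controls and 14.7, 15.3 and 13.9 TPM in the knockdown, then 26.8, 23.2 and 23.0 TPM in 72 h controls and 51.3, 39.6 and 45.4 TPM with AGR2 overexpression. No groups overlapped in either comparison, with changes of −0.71 ± 0.0923 (limma adjusted p = 6.11e-05) and 0.87 ± 0.0923 (limma adjusted p = 2.30e-05). SNHG12 and SNHG7 did likewise, at −0.41 and 0.65, and at −0.33 and 0.94. GAS5, a growth arrest transcript, rose in the overexpression, from 12.5, 13.2 and 12.5 TPM to 26.5, 22.1 and 22.6 TPM (0.85 ± 0.0685, limma adjusted p = 3.46e-06). Its knockdown change was 0.03 as deposited and −0.45 after rescaling (limma adjusted p = 0.00209), and the effects differed by 0.81 (limma adjusted p = 3.32e-05).

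SNHG4 rose in both populations by nearly equal amounts, 1.18 and 1.16, from 6.59, 8.20 and 7.37 TPM to 18.99, 17.8 and 17.2 TPM at 24 h and from 9.03, 8.03 and 8.69 TPM to 19.5, 20.9 and 20.8 TPM at 72 h. SNHG29 was among the few to fall in the overexpression, from 43.1, 41.3 and 41.4 TPM to 30.4, 24.7 and 26.4 TPM (−0.61 ± 0.0747, limma adjusted p = 6.17e-05). Its rise of 0.20 in the knockdown turned to −0.30 after rescaling. The protein partners of snoRNAs were read from a list beside the hosts. All 8 core proteins of snoRNA particles rose in the knockdown as deposited and 4 after rescaling, where 62.3% and then 1749 of the 5460 coding genes at the level of the 149 did. In the overexpression none of the 8 rose, and NOP56 and DKC1 fell. Of the same coding genes, 31.6% rose and 30.6% fell in the overexpression as deposited, and 26.8% and 36% after rescaling. The 9 tested of 10 nonsense-mediated decay factors also all rose in the knockdown (7 after rescaling). In the overexpression 3 of the 9 rose and 1 fell as deposited, but 2 rose and 3 fell after rescaling.

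The largest changes in the knockdown follow. CRIM1-DT (chr2:36354066-36355488, minus strand), divergent from the transmembrane gene CRIM1, measured 26.3, 22.4 and 22.8 TPM in the 24 h controls and 5.02, 5.86 and 4.73 TPM in the knockdown. This was a fall to 0.218 of the control mean, a log2 change of −2.00 ± 0.156 (limma adjusted p = 1.53e-06). In the 72 h controls it measured 26.1, 20.3 and 21.3 TPM, and in the overexpression 30.4, 19.1 and 22.3 TPM, groups that overlapped. The effects differed by 2.06 ± 0.221 (limma adjusted p = 1.53e-05). CRIM1 fell less in the knockdown, by 0.38 on the log2 scale, and also fell in the overexpression, by 0.56.

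ELF3-AS1 (chr1:201995696-202010463, minus strand) measured 10.1, 10.4 and 10.6 TPM in the 24 h controls and 2.79, 2.58 and 3.11 TPM in the knockdown. Its change of −1.57 ± 0.0641 (limma adjusted p = 2.18e-08) was met by that of ELF3, an epithelial ETS factor on the other strand, at −1.72 ± 0.053. At 72 h ELF3-AS1 rose from 11.2, 10.4 and 10.3 TPM to 15.2, 17.1 and 16.3 TPM (0.56 ± 0.0641, limma adjusted p = 3.70e-05), and ELF3 by 0.72. Of the exon bases of ELF3-AS1, 23.3% overlap exons of a coding gene on the other strand.

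TGFB2-OT1 had the largest fall of all in the knockdown, from 80.3, 76.4 and 67.0 TPM to 13.5, 18.6 and 9.12 TPM (−2.40 ± 0.601, limma adjusted p = 0.00494). It lies on the same strand as TGFB2, with 100% of its exon bases inside TGFB2 exons, so reads there could be assigned to either gene. TGFB2 itself stood at 2.41 ± 0.476 TPM in the 24 h controls and 1.58 ± 0.225 TPM in the knockdown, a change of −0.40 (limma adjusted p = 0.0131). The 72 h controls were spread widely, at 77.1, 24.1 and 9.03 TPM, and its overexpression change of −0.47 did not pass (limma adjusted p = 0.533). TGFB2 there went from 19.2 ± 0.501 to 1.27 ± 0.285 TPM, a change of −3.16 (limma adjusted p = 2.02e-08), and between the controls it rose by 2.58 where TGFB2-OT1 changed by −1.48 without passing (limma adjusted p = 0.0541).

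Upward, KLC1-AS1 gained most in the knockdown, from 2.24, 2.73 and 2.59 TPM to 14.7, 10.1 and 13.2 TPM (1.94 ± 0.188, limma adjusted p = 7.14e-06). FUT8-AS1 followed, from 1.64, 1.83 and 2.81 TPM to 10.3, 9.70 and 11.1 TPM (1.90 ± 0.248, limma adjusted p = 6.45e-05). Both are antisense to coding genes that rose as well: KLC1, a kinesin light chain, by 0.92, and FUT8, a fucosyltransferase, by 0.73. C19orf48P (chr19:50797687-50804931, minus strand) went from 26.6, 21.2 and 23.4 TPM to 71.5, 67.4 and 81.3 TPM, a change of 1.59 ± 0.101 (limma adjusted p = 3.68e-07). In the overexpression its 39.9, 32.9 and 35.6 TPM overlapped the 36.0, 33.0 and 36.0 TPM of the controls. All 3 of these RNAs kept their call in the knockdown after rescaling, at 1.54, 1.51 and 1.10.

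The overexpression raised further lncRNAs by more than 3-fold. ADIRF-AS1 went from 5.04, 3.85 and 5.31 TPM to 28.5, 29.3 and 31.7 TPM (2.43 ± 0.105, limma adjusted p = 5.30e-08), having fallen in the knockdown from 8.60, 8.22 and 9.22 TPM to 6.01, 4.90 and 4.95 TPM (−0.63 ± 0.105, limma adjusted p = 0.000388). The coding gene on its other strand, ADIRF, an adipogenesis regulatory factor, moved further in both, by 4.39 and −1.41. BCAN-AS1 was very even among replicates: 11.3, 10.9 and 10.7 TPM in the 72 h controls against 48.02, 47.3 and 48.6 TPM in the overexpression (2.03 ± 0.0413, limma adjusted p = 5.63e-10). In the knockdown it also rose, from 13.7, 14.3 and 13.8 TPM to 36.7, 35.7 and 36.1 TPM (1.31 ± 0.0413, limma adjusted p = 4.56e-09). The readthrough transcript ARHGAP27P1-BPTFP1-KPNA2P3 rose by 2.20, TRMT61A-DT by 1.88 and TBILA by 1.79 in the overexpression, none of them with overlapping groups.

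Falls in the overexpression were few and led by LINC genes. LINC00370 went from 29.8, 29.9 and 30.5 TPM to 8.76, 11.1 and 11.1 TPM (−1.47 ± 0.0771, limma adjusted p = 1.86e-07), with no passing change in the knockdown as deposited. LINC02582 showed most clearly a rise in the knockdown with a fall in the overexpression. It measured 8.00, 9.39 and 9.19 TPM in the 24 h controls, 19.7, 18.2 and 18.7 TPM in knockdown cells, 16.1, 15.7 and 15.8 TPM in 72 h controls and 4.59, 6.08 and 5.97 TPM in the overexpression. Both changes, 1.01 ± 0.0913 and −1.37 ± 0.0913, passed under either scaling (as deposited, limma adjusted p = 4.23e-06 and 9.06e-07).

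AGAP2-AS1 fell in the overexpression from 43.0, 42.0 and 43.2 TPM to 19.9, 16.0 and 20.7 TPM (−1.15 ± 0.113, limma adjusted p = 1.35e-05). AGAP2, the GTPase-activating gene on the other strand, rose there by 1.12 from a level of 0.331 ± 0.0567 TPM. ITGB8-AS1 fell in both populations, from 14.8, 14.7 and 15.7 TPM to 7.53, 6.73 and 6.96 TPM in the knockdown and from 14.0, 11.5 and 13.0 TPM to 8.92, 5.92 and 6.93 TPM in the overexpression. Its changes of −0.995 and −0.75 (limma adjusted p = 3.06e-05 and 0.000335) accompanied falls of ITGB8, an integrin subunit, of −0.36 and −1.31.

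Read across both populations, which share no control library, 25 of the 149 fell in the knockdown and rose in the overexpression, and all 25 passed the test of the difference between the effects. That is 16.8% of the lncRNAs against 6.32% of all tested genes, and after rescaling it was 50 lncRNAs, 33.6% against 11.7%. The set holds 4 of the 5 miRNA hosts, UCA1, KRT7-AS, ELF3-AS1, ADIRF-AS1 and the snoRNA hosts EPB41L4A-AS1, SNHG7 and SNHG12. The reverse pattern, up in the knockdown and down in the overexpression, was held by 6 lncRNAs (CENPBD1P, DANCR, LINC02582, PRECSIT, SBDSP1 and SNHG29), or 4.03% against 18.9% of all tested genes. After rescaling the reverse pattern held 5, or 3.36% against 15.0%. A further 27 (18.1%) rose in both and 4 (2.68%) fell in both, while 22 (14.8%) passed in neither, against 12.2%, 2.28% and 18.7% of all tested genes. After rescaling these counts were 10, 13 and 12, or 6.71%, 8.72% and 8.05%, against 4.42%, 6.69% and 22.3%. Some of these calls rest on single libraries: the fall of DANCR in the overexpression (−0.24) did not pass without 72 h control replicate 1 or 3 or overexpression replicate 2 or 3 (−0.27 to −0.21 over the 12 leave-outs), the rise of SNHG29 in the knockdown (0.20) did not pass in 5 leave-outs (0.16 to 0.25), and the falls of AGAP2-AS1 and LIPT2-AS1 in the knockdown (−0.32 and −0.44) did not pass in 4 and 2 (−0.41 to −0.23 and −0.55 to −0.35). Over the whole list, the overexpression effect exceeded the knockdown effect in 72 lncRNAs and lay below it in 30, against 20.1% and 45.6% of all tested genes; after rescaling the counts were 103 and 16, against 31.1% and 32.7%.

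**Figure D4:**
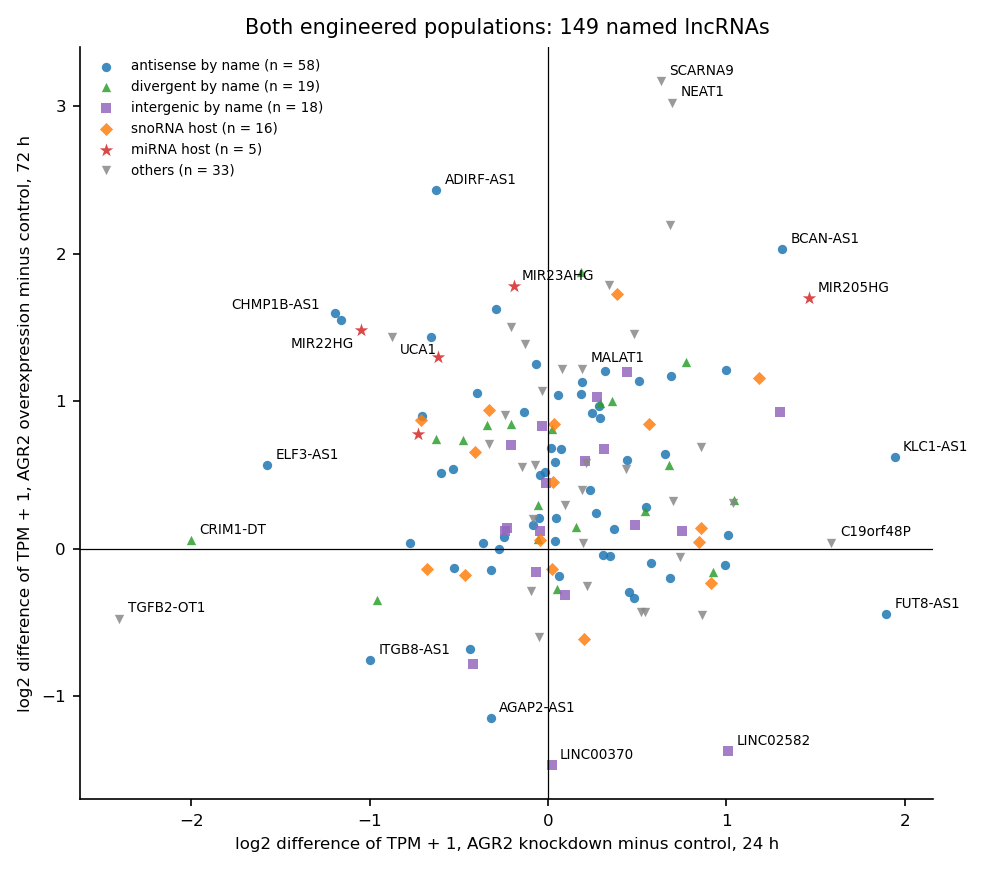
Log2 change of each of the 149 named lncRNAs in the knockdown (horizontal axis) and in the overexpression (vertical axis), with a symbol for each class. Most points lie above 0 on the vertical axis, where 88 passed and 14 passed below, and 4 of the 5 miRNA hosts lie at the upper left with UCA1.

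By class, the share that rose in the overexpression as deposited was 33 of 58 antisense, 12 of 19 divergent, 9 of 18 intergenic and 21 of 33 other lncRNAs, beside the hosts above. The share of all tested genes was 29.9%. In the knockdown the antisense class had 20 up and 16 down as deposited and 7 and 34 after rescaling, and the divergent class 4 up and 5 down and then 3 and 10, beside the all-gene shares given above. In the deposited coordinates 43 lncRNAs overlap no gene on the other strand, though a partner not listed there would be missed. These 43 had 26 up (60.5%) and 4 down in the overexpression, and the 106 with such a gene had 62 up (58.5%) and 10 down. In the knockdown the 43 had 16 up (37.2%) and 6 down (14.0%), and the 106 had 34 up (32.1%) and 31 down (29.2%). After rescaling these were 7 up and 17 down (39.5%) for the 43, and 17 up and 68 down (64.2%) for the 106. The difference between these sets was not tested. Some names are near-identical copies between which the authors' counting could divide reads, namely SLX1A-SULT1A3 with SLX1B-SULT1A4, GTF2IP1 with GTF2IP4 and NSUN5P1 with NSUN5P2, so their values are uncertain.

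The lncRNAs that overlap a tested coding gene on the other strand formed 71 pairs. In the knockdown, lncRNA and partner passed in the same direction in 24 pairs, in opposite directions in 9, and the lncRNA passed alone in 9. In the overexpression the counts were 15, 6 and 23. These are counts as deposited, where 53.6% of all tested genes rose and 11.9% fell in the knockdown. In the overexpression those shares were 29.9% and 25.5%. By sign alone, 44 of the 71 pairs agreed in each comparison. How often unrelated genes would agree was not tested, and no such counts were made after rescaling. KRT7-AS, antisense to the epithelial keratin KRT7, shows both cases: in the knockdown it fell from 154, 143 and 138 TPM to 97.7, 90.4 and 97.0 TPM, as KRT7 did from 677 ± 89.8 to 398 ± 24.2 TPM. In the overexpression it rose from 165, 161 and 158 TPM to 240, 233 and 218 TPM (0.51 ± 0.0587, limma adjusted p = 4.05e-05), while KRT7 stayed at 794 ± 15.7 against 784 ± 105 TPM.

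Exon overlap was complete for CHMP1B-AS1, whose exon bases lie 100% within exons of CHMP1B, a membrane-remodelling ESCRT gene. It fell in the knockdown from 63.6, 76.3 and 56.8 TPM to 39.2, 29.6 and 18.7 TPM and rose in the overexpression from 29.5, 18.6 and 24.2 TPM to 92.5, 70.4 and 61.3 TPM. CHMP1B moved in the same directions, by −0.38 and 1.27, beside −1.19 and 1.60 for the lncRNA. PYGO2-AS1 instead opposed PYGO2, a Wnt pathway gene, in the knockdown, at −1.16 against 0.36, and rose by 1.55 in the overexpression while PYGO2 did not pass. Of its exon bases 59.4% overlap coding exons on the other strand, and its libraries were uneven, from 12.0 to 25.0 TPM in the overexpression. The 20 pairs named after a coding gene that they do not overlap were also counted as deposited. They had 5 in the same direction and 2 opposite in the knockdown, and 4 and 4 in the overexpression. By sign alone, 14 of the 20 agreed in the knockdown and 9 in the overexpression.

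**Figure D5:**
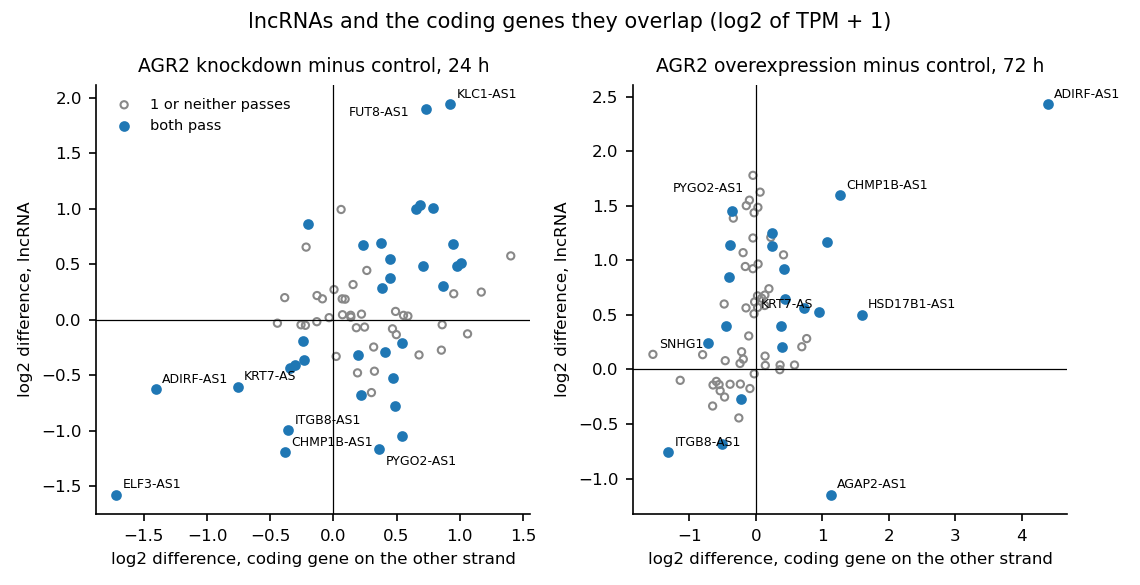
Log2 change of an lncRNA (vertical axis) against that of the coding gene it overlaps on the other strand (horizontal axis) for 71 pairs, in the knockdown and in the overexpression, with filled points where both passed. ADIRF-AS1 with ADIRF and ELF3-AS1 with ELF3 moved together, and AGAP2-AS1 with AGAP2 moved apart in the overexpression.

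The promoters of the lncRNAs that fell in the knockdown and rose in the overexpression were read for motifs, since these genes moved together. RefSeq (GRCh38.p14) had a window, from 250 bases before to 50 after the start, for 99 of the 149. The letters searched on both strands were TGANTCA (AP-1), TTTCCCGC or TTTGGCGC (E2F), TGATGCAA (ATF4), TGACGTCA (CRE) and the core promoter box TATAAA, each counted separately. AP-1 letters were in 7.07% of the 99 windows and in 7.76% of all 27305 RefSeq windows, and the core promoter box in 10.1% and 12.0%. E2F letters were in 2.02% and 2.31%, CRE in 1.01% and 1.98%, and ATF4 in none of the 99 and in 0.923% of all. Among the 17 windows of lncRNAs down in the knockdown and up in the overexpression, 3 (17.6%) held AP-1 letters, 2 (11.8%) the core promoter box, 1 (5.88%) E2F letters and none those of ATF4 or CRE. Of the 9 windows of lncRNAs that fell in the overexpression under both scalings, 1 (11.1%) held AP-1 letters, and the window of PRECSIT, which moved the reverse way as deposited, holds them at 98 and 42 bases before the start. The windows of ADIRF-AS1 and KRT7-AS are shown as examples of the 3, with the AP-1 letters in capitals, starting 29 and 95 bases before the RefSeq start.
ADIRF-AS1 (chr10:86971191-86971490, minus strand): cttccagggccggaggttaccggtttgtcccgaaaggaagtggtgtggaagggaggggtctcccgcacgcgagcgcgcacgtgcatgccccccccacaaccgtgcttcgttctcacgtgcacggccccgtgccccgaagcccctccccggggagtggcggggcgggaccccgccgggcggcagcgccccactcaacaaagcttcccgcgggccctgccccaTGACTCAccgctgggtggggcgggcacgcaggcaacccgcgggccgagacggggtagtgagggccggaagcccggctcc
KRT7-AS (chr12:52247399-52247698, minus strand): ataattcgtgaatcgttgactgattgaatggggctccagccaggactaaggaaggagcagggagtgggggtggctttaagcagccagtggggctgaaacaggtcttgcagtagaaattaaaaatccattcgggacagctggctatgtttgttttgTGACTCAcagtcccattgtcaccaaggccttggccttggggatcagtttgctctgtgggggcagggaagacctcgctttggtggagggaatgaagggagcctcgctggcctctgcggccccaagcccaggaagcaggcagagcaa

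The other lncRNAs with large changes or high levels are given more briefly. LINC00641 and MAN1B1-DT rose in the knockdown by 1.30 and 1.04 (0.86 and 0.63 after rescaling), and LRRC8D-DT fell by 0.96 on the log2 scale, each with groups that did not overlap. LINC00641 also rose in the overexpression, by 0.93, and TMEM147-AS1 rose in both populations, by 0.999 and 1.21. LINC02870 and GCAWKR fell in the overexpression, by 0.78 and 0.60 on the log2 scale.

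Among the most abundant, LINC02967 (mean 91.8 TPM) and HSD17B1-AS1 (57.5 TPM) rose in the overexpression by 0.59 and 0.50, and LINC03078 (62.6 TPM) rose in the knockdown by 0.75 as deposited but did not pass after rescaling (0.25, limma adjusted p = 0.0982). SNHG3 rose in both populations, by 0.57 and 0.85, the former not passing after rescaling (0.07, limma adjusted p = 0.632). ZFAS1, another snoRNA host, fell in the knockdown from 24.5, 19.99 and 19.96 TPM to 14.6, 15.4 and 15.7 TPM (−0.46, limma adjusted p = 0.00125). GOLPH3-DT, the divergent transcript of GOLPH3, changed by −0.48 and 0.74, and HK2-DT passed in neither population as deposited.

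Between the control groups, which differ in drug time and may differ in vector, 55 lncRNAs were higher at 72 h and 39 lower as deposited, against 52.9% and 8.1% of all tested genes. After rescaling 18 were higher and 88 lower, against 28.6% and 25.3%. The 24 h and 72 h controls serve in the other comparisons too, so these values stand beside those above and are not independent of them. PRECSIT gained most, from 3.74, 4.58 and 4.64 TPM to 11.6, 11.6 and 11.7 TPM (1.25 ± 0.0816, limma adjusted p = 1.41e-06), followed by AFAP1-AS1, from 18.3, 20.1 and 22.7 TPM to 47.6, 47.6 and 49.1 TPM (1.21 ± 0.138, limma adjusted p = 3.95e-05). ALDH1A3-AS1 rose by 1.07, FBXL19-AS1 by 1.04 and OIP5-AS1, a cytoplasmic RNA that binds HuR, by 1.03, all 5 also higher after rescaling. CHMP1B-AS1 fell by 1.42 on the log2 scale, TUBA1B-AS1 by 1.04, MIR205HG by 0.93, TTC23L-AS1 by 0.89 and AHSA2P by 0.78, each also lower after rescaling. The fall of TUBA1B-AS1 did not pass without replicate 1 of either control group (−1.20 to −0.86 over the 12 leave-outs), and 80.2% of its exon bases overlap coding exons on the other strand.

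At the level threshold, the members with the lowest means were FUT8-AS1, WASL-DT and LINC00847, at 5.26, 5.25 and 5.24 TPM. Just below stood SNHG17 at 4.95 TPM, and PANDAR and LINC01089 at 4.94 TPM each. The rule also left out 7 named lncRNAs with a mean of 5 TPM or more because a library fell under 1 TPM. GPC1-AS1 was the most abundant of them, at 13.1, 12.7 and 14.7 TPM in the 24 h controls, 0.730, 0.536 and 0.739 TPM in knockdown cells, 8.23, 7.74 and 7.38 TPM in 72 h controls and 54.7, 54.2 and 55.6 TPM in the overexpression. IGFL2-AS1 measured 30.8, 31.4 and 30.5 TPM in the overexpression and 4.10, 4.27 and 4.23 TPM in the 72 h controls. LINC00930 measured 22.5, 25.1 and 24.2 TPM in the overexpression and between 0.0607 and 0.432 TPM in every other library. The rest were RCC2-AS1, ECEL1P2, THBS1-AS1 and SMARCA5-AS1.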

How the data were processed

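Per the labels' protocols, NucleoZOL was used to isolate total RNA, and library preparation followed Illumina's usual steps. Reads were aligned with STAR 2.7.8a to hg38/GRCh38, per the submitters' processing notes; the quantifier, annotation release and strandedness are not given in the sources used. The deposited table, made by the authors, lists TPM for 30225 genes with biotype, name and coordinates. Read counts cannot be had from TPM, so depth is unknown and no counting interval is given. Groups follow the labels' titles.

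The members, gene lists, classes and tests were chosen with earlier results of these data known. Genes at 1 TPM or more in at least 3 libraries (15721) were fitted as log2(TPM + 1) with limma 3.58.1 (R 4.3.3), using means of the 4 groups in 1 model of 12 libraries, 8 residual degrees of freedom and an intensity trend; p-values are two-sided and Benjamini-Hochberg adjusted over all tested genes at 0.05. Fold changes are on that log2 scale, with the SE of the fit, and understate the change of low genes. A permutation of 3 against 3 libraries cannot go below 0.1. The fit was tested on simulated data. Rescaling divided each library by its median ratio to the geometric mean over genes above 0 in all libraries. Overlaps came from the deposited coordinates and, for exons, snoRNAs and miRNAs, from GENCODE release 29; sequences from RefSeq GRCh38.p14. Single genes named were the largest 8 rises and falls of the knockdown and overexpression and 5 between the controls, the 6 largest in each pattern across both populations, the most abundant members overall and by class, and well-known lncRNAs; SNHG7 and 3 of the genes just outside the level rule were named after their values were seen. A gene that this rule selects is not reported here. Alternatives were another pseudocount of 0.1, other filters, 2 rescalings, a replicate block and each library left out in turn. Python 3.11.15 with pandas 2.3.3 and matplotlib 3.10.9 made the summaries and figures.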

Additional observations from a re-analysis of the deposited data

How the results depend on the processing

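The overexpression counts were the steadiest: median-ratio rescaling left 84 higher and moved the lower count from 14 to 22. The same rescaling moved the knockdown counts to 24 higher and 85 lower, the control counts to 18 higher and 88 lower, and the lower count of the difference of effects to 16. Rescaling to nuclear protein-coding and lncRNA genes moved the higher count between the controls to 31. Restricted to the 43 lncRNAs with no gene on the other strand, which are fewer by construction, the counts were 16 higher and 6 lower in the knockdown, 26 and 4 in the overexpression, 17 and 10 between the controls, and 22 and 10 for the difference. Levels set by the libraries outside a comparison, an alternative chosen after seeing the data, changed no count by more than 1.5 times. Leaving out each library in turn gave 45 to 57 higher and 32 to 40 lower in the knockdown, 81 to 91 and 13 to 19 in the overexpression, 45 to 55 and 29 to 43 between the controls, and 67 to 76 and 28 to 32 for the difference.

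Same-numbered libraries did not deviate together (correlations from −0.159 to 0.062), so the values show no pairing by number. Whether same-numbered libraries were handled together is not given in the labels, and these correlations cannot decide it. With a replicate block the counts were 54 higher and 37 lower in the knockdown and 88 and 15 in the overexpression.

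Of 3363 alternatives of 177 log2 changes of single lncRNAs, 3165 kept their direction and side of the threshold, 131 no longer passed, 47 newly passed and 20 changed sign. After median-ratio rescaling the knockdown changes that turned were SNHG29 at −0.30, LINC00370 at −0.46, GAS5 at −0.45, MALAT1 at −0.31, TBILA at −0.086, AFAP1-AS1 at −0.0046, HK2-DT at −0.33 and LINC02967 at −0.29. Between the controls they were ZFAS1 at −0.14, MIR22HG at −0.18, DANCR at −0.29, ELF3-AS1 at −0.37, KRT7-AS at −0.28, TBILA at −0.30, GOLPH3-DT at −0.078, GCAWKR at −0.12 and SNHG4 at −0.20. On the nuclear scaling, SNHG29 (−0.031) and GAS5 (−0.20) turned in the knockdown and KRT7-AS (−0.061) between the controls. The shift of the typical gene that the rescaling removes is given with the library values, and no further cause was tested. Unknown depth limits the precision of the lowest values, and unknown strandedness limits the antisense ones.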
